A study of Homo sapiens with 48 samples.

Results

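The 10 genes described here control passage through the restriction point at the end of G1, and were measured among 58302 genes in the deposited count table. They are the D cyclins CCND1, CCND2 and CCND3, their kinase partners CDK4 and CDK6, the E cyclins CCNE1 and CCNE2, and the RB family (the pocket proteins) RB1, RBL1 and RBL2. Each was found by its gene symbol, in 1 row of the table. By their identifiers in the table, which GENCODE places on GRCh38, they are CCND1 (ENSG00000110092) on chromosome 11, CCND2 (ENSG00000118971) on chromosome 12, CCND3 (ENSG00000112576) on chromosome 6, CDK4 (ENSG00000135446) on chromosome 12, CDK6 (ENSG00000105810) on chromosome 7, CCNE1 (ENSG00000105173) on chromosome 19, CCNE2 (ENSG00000175305) on chromosome 8, RB1 (ENSG00000139687) on chromosome 13, RBL1 (ENSG00000080839) on chromosome 20 and RBL2 (ENSG00000103479) on chromosome 16. The mRNA was sequenced from AMO1, an established human multiple myeloma line derived from a plasmacytoma. Every clone carried doxycycline (Dox)-inducible shRNAs against 1 target. The genotype labels list 3 hairpins for each target, so that shIRE1 and shXBP1 name sets of hairpins. In shIRE1 clones 1 and 3 the target was ERN1, the gene of the endoplasmic reticulum stress sensor IRE1. In shXBP1 clones 1 and 18 it was XBP1, whose mRNA IRE1 splices into the form that encodes the transcription factor XBP1s. Cells received 0.2 µg/ml Dox for 0, 24, 48 or 72 h, with 3 replicate flasks per group, which gave 16 groups and 48 libraries. Each line was a single clone, so that differences between clones of the same target include whatever set the clones apart at the outset. Each clone was compared with its own libraries at 0 h. No clone with a non-targeting shRNA was analysed here, so that what Dox or the expression of any shRNA does by itself cannot be told apart from loss of the target.

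D cyclins bind CDK4 and CDK6 and direct them to phosphorylate the pocket proteins, which in their underphosphorylated form hold E2F transcription factors in check. Cyclin E with CDK2 adds further phosphorylation, E2F is released, and genes of DNA synthesis are transcribed. RB1 acts mainly on the activating E2Fs, whereas RBL1 (p107) and RBL2 (p130) bind the repressive E2Fs. RBL1 is itself a known E2F target that rises as cells enter S phase, while RBL2 is the pocket protein associated with quiescence. In multiple myeloma the D cyclins are known for their deregulation by translocation or overexpression.

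Library totals ranged from 19177855 to 40767202 counts. The targeted genes were measured first. ERN1 in shIRE1 clone 1 went from 152 ± 2.38 CPM (counts scaled to a common library size, mean ± SD, n = 3) at 0 h to 102 ± 1.71 at 72 h, and in clone 3 from 438 ± 15.31 to 125 ± 2.92. At 24 h ERN1 stood at 127 ± 1.63 in clone 1 and at 145 ± 1.32 in clone 3, so that clone 1 had then lost little of it. XBP1 in shXBP1 clone 1 went from 167 ± 7.65 at 0 h to 45.2 ± 3.51 at 24 h and 34.0 ± 0.758 at 72 h. In clone 18 it went from 170.2 ± 6.68 to 62.6 ± 2.19 and 37.9 ± 5.37. All 10 plasma cell markers examined exceeded 1 CPM on average and none of 5 B cell, 5 myeloid or 5 fibroblast markers did. Of 5 T cell markers, CD3E, CD4, CD8A and TRAC exceeded it. Across genes, 2 libraries were nearer to another clone than to their own group. One was shXBP1 clone 18, 72 h, replicate 3 (Pearson's r 0.982 with its own group and 0.993 with shXBP1 clone 1 at 72 h). The other was shIRE1 clone 3, 24 h, replicate 1 (0.990 with its own group and 0.992 with shIRE1 clone 1 at 24 h). Calls for the members that change without the former, or within shIRE1 clone 3 without the latter, are given with and without that library. Between the shIRE1 clones the fit without the latter gained 1 call, which is not listed here. The former is called the doubtful library.

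The first question was how much of each transcript the cells held before silencing. Levels of different genes were compared as CPM per kilobase of exon, over the 12 libraries at 0 h. CCND2 stood first at 133 ± 13.1 (SD, n = 12) CPM per kilobase, 2.72 times the next gene, and its libraries did not overlap those of any other member. CDK4 followed at 48.8 ± 6.52, then CDK6 at 29.7 ± 2.47 and RB1 at 26.6 ± 6.48, with overlapping ranges for CDK6 and RB1. CCNE1 (16.8 ± 2.56), RBL2 (11.8 ± 4.42), RBL1 (11.6 ± 0.793) and CCND3 (9.66 ± 1.22) followed, each overlapping the one before it. CCND3 did not overlap the next gene, CCND1 (5.49 ± 2.13). CCND1 and CCNE2 (3.01 ± 0.370) were the lowest and overlapped each other. With the longest annotated transcript as the length in place of the union of exons, CCND3 moved from the eighth to the fifth place, at 23.2 CPM per kilobase, CDK4 stood at 81.0, and RB1 (35.9) passed CDK6 (31.2).

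Among the D cyclins, CCND2 thus made up most of the measured transcript pool. Its share of the summed CPM per kilobase of the 3 genes lay between 87.8% ± 0.564 (SD, n = 3) in shXBP1 clone 1 at 72 h and 91.1% ± 0.486 in shXBP1 clone 18 at 0 h over the 16 groups. Of the summed CDK4 and CDK6 levels, CDK6 took 36.2% ± 4.06 in shXBP1 clone 1 at 0 h and 44.2% ± 3.14 in shIRE1 clone 1 at 24 h, the lowest and the highest group means. All shares given here use the union of exons as length and depend on that choice. With the longest transcript, CDK4 stood at 81.0 and CDK6 at 31.2 CPM per kilobase at 0 h, and the shares were not recomputed.

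**Figure D1:**
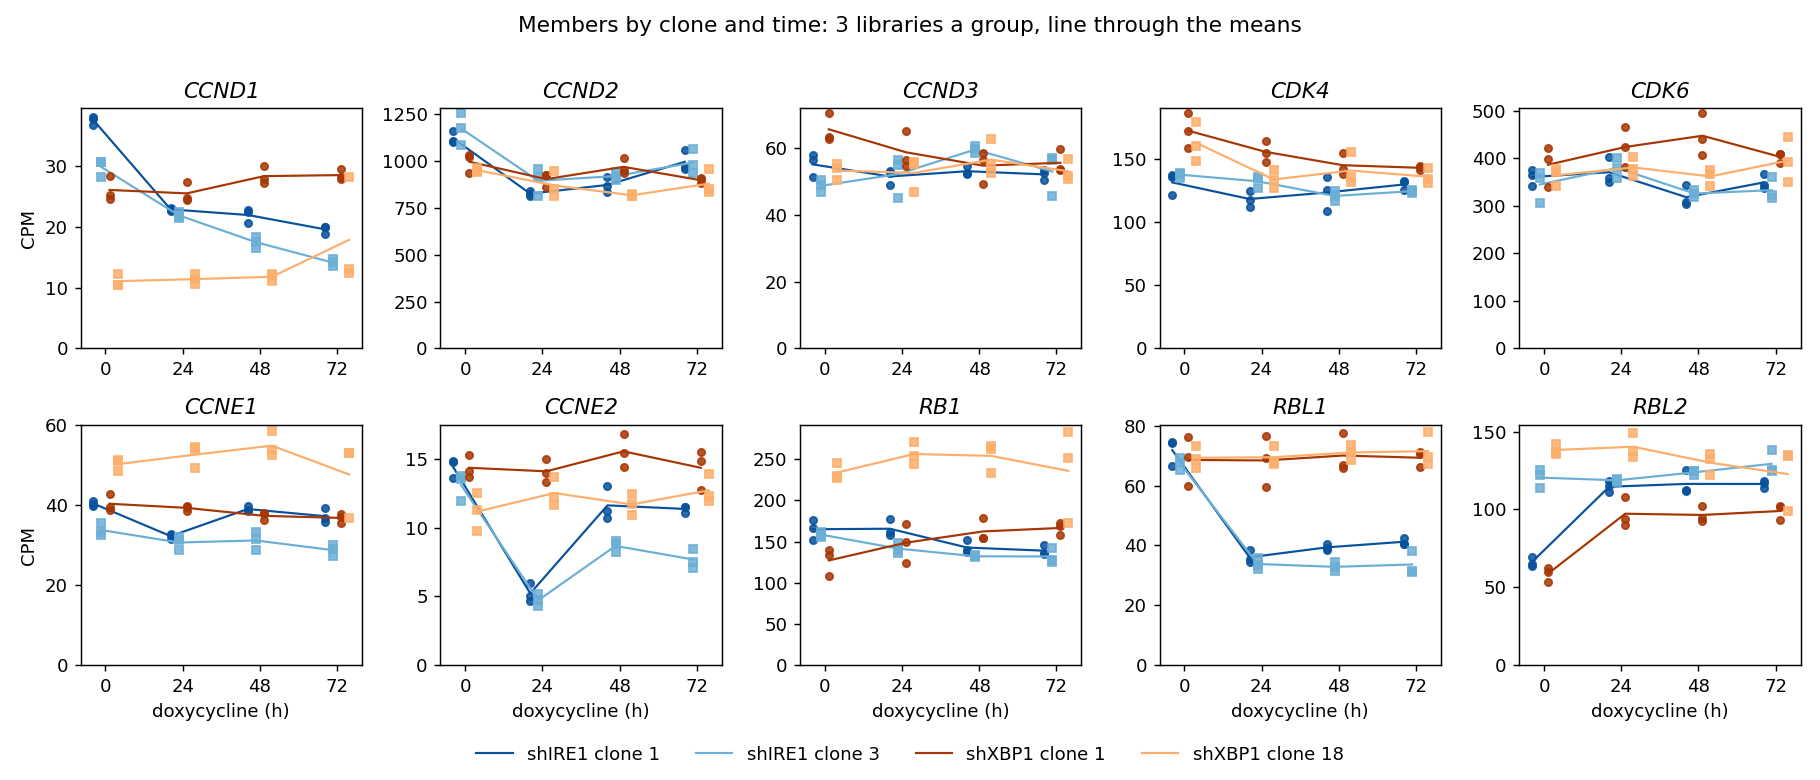
Abundance of the 10 members in CPM (vertical axes, starting at 0) against hours of Dox (horizontal axes), with 1 point for each of the 48 libraries and a line through the 3-library means of each clone; points of the 4 clones are set slightly apart at each time. RBL1 and CCNE2 were at or near their lowest at 24 h in both shIRE1 clones, RBL2 rose in clone 1 of either shRNA, and 1 library of shXBP1 clone 18 at 72 h stood apart in CCND1, CCNE1, RB1 and RBL2.

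CCND1, the cyclin D1 gene, fell in both shIRE1 clones and went on falling to 72 h. In shIRE1 clone 1 its libraries held 37.8, 36.8 and 38.2 CPM at 0 h, 23.0, 22.7 and 23.0 at 24 h, 22.5, 20.7 and 22.8 at 48 h and 20.0, 18.8 and 20.0 at 72 h. In clone 3 they held 28.2, 30.7 and 30.7, then 21.5, 22.4 and 21.8, then 18.4, 16.6 and 17.5, and at 72 h 14.7, 14.2 and 13.5. In both clones every library with Dox lay below every library without it. Tested with the quasi-likelihood test of edgeR and adjusted over all genes by Benjamini and Hochberg, as were all comparisons that follow, the change at 72 h was -0.94 on the log2 scale in clone 1 (SE 0.0578, adjusted p = 5.26e-11) and -1.09 in clone 3 (SE 0.0723, adjusted p = 4.56e-09). Between 24 and 72 h CCND1 fell further by 0.22 in clone 1 (adjusted p = 0.00732, and 0.314 with all 48 libraries in the fit) and by 0.64 in clone 3 (adjusted p = 6.77e-06), or 0.66 without the library that resembles clone 1. As these are bulk samples, fewer cells in a given state and less RNA per cell cannot be told apart.

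CCND1 passed the test at no time in the shXBP1 clones. Clone 1 of shXBP1 held 28.3, 25.3 and 24.6 CPM at 0 h and 28.2, 27.9 and 29.6 at 72 h (log2 fold change 0.11, SE 0.0766, adjusted p = 0.296). The shXBP1 clone 18 began from the lowest level of the 4 clones, at 12.2, 10.5 and 10.5 CPM, and held 10.7, 11.4 and 12.2 at 24 h and 11.2, 11.97 and 12.3 at 48 h. At 72 h its libraries held 13.1, 12.4 and 28.2, the last of which is the doubtful library, with the CCND1 level of shXBP1 clone 1. The change at 72 h was 0.71 (SE 0.24, adjusted p = 0.0791) with that library and 0.22 (SE 0.0990, adjusted p = 0.209) without it. DESeq2 gave an adjusted p of 0.0216 with all 12 libraries, and edgeR with no filter and with all 48 libraries passed the threshold too. About 10.4% of the exon bases of CCND1 lie opposite LTO1, and whether strand was used in counting is not given in the sources used here.

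CCND2, the cyclin D2 gene and the most abundant member, fell at 24 h in both shIRE1 clones, and in clone 1 it then regained part of its level. Its mean went from 1120.2 ± 33.1 CPM (n = 3) to 825 ± 14.1 at 24 h and 995 ± 56.6 at 72 h in clone 1, and from 1172 ± 87.6 to 893 ± 72.7 and 990.5 ± 66.1 in clone 3. The fall at 24 h was 0.45 on the log2 scale in clone 1 (adjusted p = 2.09e-08) and 0.40 in clone 3 (adjusted p = 1.73e-04), or 0.33 without the library of clone 3 that resembles clone 1. The rise from 24 to 72 h passed the test in clone 1 (log2 fold change 0.27, SE 0.0408, adjusted p = 5.21e-05) and not in clone 3 (log2 fold change 0.14, SE 0.0659, adjusted p = 0.113). With shXBP1, clone 1 had less CCND2 at 24 h (log2 fold change -0.17, SE 0.0506, adjusted p = 0.03) and at 72 h (log2 fold change -0.17, SE 0.0507, adjusted p = 0.0209). The call at 24 h was lost in the fit with no filter, with a replicate block, with all 48 libraries or with only the 6 compared. For shXBP1 clone 18 the value at 48 h was -0.22, with adjusted p = 0.0694 from all 12 libraries and 0.0105 without the doubtful library.

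CCND3, the cyclin D3 gene, held between 48.7 and 65.6 CPM in its 16 group means. It rose at 48 h in shIRE1 clone 3 (log2 fold change 0.28, SE 0.0953, adjusted p = 0.0178) and passed the test at no other time in the shIRE1 clones. Clone 1 of shXBP1 had less of it at 48 h (-0.28, adjusted p of 0.04) and at 72 h (-0.26, adjusted p of 0.0487), both close to the threshold and lost with a replicate block (adjusted p = 0.0643 and 0.0749).

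CDK4 and CDK6, the catalytic partners of the D cyclins, differed from 0 h by at most 0.29 on the log2 scale in any clone. CDK4 fell in shXBP1 clone 1, from 186, 159 and 172 CPM at 0 h to 144, 141 and 144 at 72 h (log2 fold change -0.29, SE 0.0680, adjusted p = 0.0071). It also fell in shIRE1 clone 3 at 48 h (log2 fold change -0.20, SE 0.0475, adjusted p = 0.00212) and at 72 h (log2 fold change -0.16, SE 0.0475, adjusted p = 0.0109). The latter call was lost with no filter, with all 48 libraries or with only the 6 compared. For shIRE1 clone 1 the value was -0.16 at 24 h (adjusted p of 0.0589, and under 0.05 with RLE factors, no filter, DESeq2, limma or only the 6 libraries) and -0.02 at 72 h (adjusted p of 0.803). In shXBP1 clone 18 CDK4 was -0.28, -0.21 and -0.25 at 24, 48 and 72 h and did not pass the test (adjusted p = 0.101, 0.142 and 0.0557). DESeq2 gave adjusted p = 0.0345 at 24 h and 0.0269 at 72 h for that clone, and the fit without the doubtful library 0.0396 and 0.108. On the annotation, 44.2% of the exon bases of CDK4 lie opposite TSPAN31, whose own counts went from 30.1 ± 3.41 to 47.5 ± 0.922 CPM in shIRE1 clone 1 and from 26.1 ± 2.80 to 39.0 ± 1.36 in shXBP1 clone 1 between 0 and 72 h. They went from 45.3 ± 1.30 to 52.3 ± 1.05 in shIRE1 clone 3 and from 42.0 ± 1.96 to 40.8 ± 0.979 in shXBP1 clone 18. Its part in the CDK4 values was not tested.

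CDK6 was lower at 48 h in shIRE1 clone 1 (log2 fold change -0.18, SE 0.0538, adjusted p = 0.00655), where the libraries at 0 and 48 h overlapped in range, and the adjusted p was 0.0647 with all 48 libraries in the fit. In shIRE1 clone 3 it was lower at 72 than at 24 h (log2 fold change -0.20, SE 0.0710, adjusted p = 0.0453), and without the 24 h library that resembles clone 1 the adjusted p was 0.0678. RLE factors, a replicate block, DESeq2, limma and the fit of all 48 libraries also took that call past the threshold. It passed the test in neither shXBP1 clone.

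CCNE2, the cyclin E2 gene, showed the steepest early fall of the 10 genes in the shIRE1 clones, followed by a partial return. In clone 1 its libraries held 14.8, 14.8 and 13.6 CPM at 0 h, 6.01, 4.996 and 4.65 at 24 h, 10.7, 11.2 and 12.99 at 48 h and 11.5, 11.04 and 11.5 at 72 h. In clone 3 they held 11.9, 13.8 and 13.6, then 5.16, 4.30 and 4.72, then 8.99, 8.80 and 8.23, and at 72 h 7.53, 7.07 and 8.47. In both clones the 24 h libraries were the lowest, and no library with Dox reached those without. The fall at 24 h was 1.47 on the log2 scale in clone 1 (SE 0.0946, adjusted p = 1.41e-10) and 1.49 in clone 3 (SE 0.10, adjusted p = 1.99e-08), or 1.55 in clone 3 without the library that resembles clone 1. From 24 to 72 h CCNE2 rose by 1.12 in clone 1 (adjusted p = 7.44e-08) and by 0.70 in clone 3 (adjusted p = 1.08e-04), or 0.76 without that library.

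The shXBP1 clones did not show this dip. shXBP1 clone 1 held 13.7, 14.1 and 15.28 CPM at 0 h and 14.98, 13.3 and 13.99 at 24 h, and clone 18 held 9.73, 12.5 and 11.3 at 0 h and 13.7, 12.3 and 11.6 at 24 h, with overlapping libraries in both. About 37.1% of the exon bases of CCNE2 lie opposite other genes, nearly all of them opposite INTS8. INTS8 itself went from 70.1 ± 0.695 CPM at 0 h to 46.9 ± 3.82 at 24 h and 44.02 ± 0.527 at 72 h in shIRE1 clone 1, and from 60.7 ± 0.839 to 41.9 ± 4.86 and 45.4 ± 3.65 in clone 3. In the shXBP1 clones it went from 59.0 ± 3.65 to 61.5 ± 6.58 at 24 h in clone 1 and from 59.5 ± 3.71 to 65.7 ± 2.66 in clone 18. Its part in the CCNE2 values was not tested.

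CCNE1, the cyclin E1 gene, fell at 24 h in shIRE1 clone 1, from 39.9, 40.4 and 41.1 to 31.6, 32.5 and 32.8 CPM (log2 fold change -0.33, SE 0.0496, adjusted p = 1.35e-05), and rose again by 0.21 to 72 h (adjusted p = 0.004, and 0.0646 with all 48 libraries in the fit). The call at 72 h against 0 h (log2 fold change -0.12, SE 0.0498, adjusted p = 0.0417) was lost with no filter, with a replicate block, with all 48 libraries and with only the 6 compared. In shIRE1 clone 3 it was lower at 72 h (log2 fold change -0.24, SE 0.0712, adjusted p = 0.00806) and not at 24 h (log2 fold change -0.14, SE 0.0709, adjusted p = 0.112). CCNE1 passed the test in neither shXBP1 clone. With these courses, CCNE2 made up 16.6% ± 0.850 (SD, n = 3) of the summed CPM per kilobase of the E cyclins at 0 h and 8.30% ± 1.17 at 24 h in shIRE1 clone 1, and 17.8% ± 1.76 and 7.96% ± 1.07 in clone 3. For shXBP1 clone 1 the shares were 16.6% ± 1.36 and 16.7% ± 0.894.

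The pocket protein genes followed 3 different courses, and the promoters of the pair that moved most, RBL1 and RBL2, are shown for what lies next to their start sites. The promoters of CCND1, CCND2 and CCNE2 were not examined, and whether they hold E2F words was not tested. For 7 of the 10 members, RefSeq promoter windows of 300 bases, 250 before and 50 after the start, were taken (11 windows, build GRCh38.p14). They were searched on both strands for 4 E2F words (TTTCCCGC, TTTGGCGC, TTTCGCGC and TTTGCCGC) and for the TTTGAA word of the cell cycle homology region. Among these windows only that of RBL1 held an E2F word, and it held 2 of them on the strand of the gene, TTTCGCGC from position -26 and TTTGGCGC from position -16 relative to the start. A window covers 1 annotated start, and the windows of a gene need not include the start used in these cells. The only RB1 window was chr13:48476200-48476499, so that the lack of an E2F word there does not speak for other starts of RB1. RBL2 held TTTGAA from position 25 in 1 of its 2 windows. Capitals mark these words.
RBL1, chr20:37095948-37096247, minus strand: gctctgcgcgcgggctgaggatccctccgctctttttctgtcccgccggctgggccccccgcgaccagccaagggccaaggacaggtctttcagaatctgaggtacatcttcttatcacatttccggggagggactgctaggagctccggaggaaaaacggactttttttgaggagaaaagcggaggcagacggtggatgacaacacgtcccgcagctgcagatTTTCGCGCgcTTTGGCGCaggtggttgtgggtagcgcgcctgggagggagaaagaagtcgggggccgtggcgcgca
RBL2, chr16:53434221-53434520, plus strand: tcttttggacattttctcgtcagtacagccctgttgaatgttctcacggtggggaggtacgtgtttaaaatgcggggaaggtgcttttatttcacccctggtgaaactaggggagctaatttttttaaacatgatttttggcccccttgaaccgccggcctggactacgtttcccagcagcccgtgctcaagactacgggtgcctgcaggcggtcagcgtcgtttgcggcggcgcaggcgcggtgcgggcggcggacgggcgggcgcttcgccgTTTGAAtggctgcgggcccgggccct
Of 35116 such windows in RefSeq, 3.315% held at least 1 of the 4 E2F words, 0.145% held 2 or more, and 15.2% held TTTGAA. The words describe the sequence only, and neither E2F binding nor any DNA site was measured in these samples.

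RBL1 fell to about 0.5 of its level within 24 h in both shIRE1 clones and stayed there. In clone 1 its libraries held 74.2, 74.7 and 66.7 CPM at 0 h, 38.4, 35.4 and 34.3 at 24 h, 38.6, 39.1 and 40.5 at 48 h and 40.6, 42.5 and 40.6 at 72 h. In clone 3 they held 67.8, 69.1 and 65.2, then 35.9, 33.4 and 32.2, then 31.3, 32.8 and 34.5, and at 72 h 31.6, 31.3 and 38.1. Every library with Dox lay below every library without it, and clone 1 recovered slightly from 24 to 72 h (log2 fold change 0.19, SE 0.0566, adjusted p = 0.0139), a call lost with all 48 libraries in the fit (adjusted p = 0.104). The fall at 24 h was 1.00 on the log2 scale in clone 1 (SE 0.0551, adjusted p = 1.40e-11) and 1.00 in clone 3 (SE 0.0722, adjusted p = 2.92e-08, and a fall of 1.04 without the library that resembles clone 1). The shXBP1 clone 1 held 59.8, 69.6 and 76.3 CPM at 0 h and 66.1, 71.1 and 70.7 at 72 h, and clone 18 held 65.9, 68.9 and 73.1 at 0 h and 67.3, 77.8 and 69.4 at 72 h, with overlapping libraries in both. Its changes in these clones lay between -0.03 and 0.05 over the 3 times and none passed the test.

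RBL2 rose in 1 clone of each shRNA and was already high in the other clone before Dox. In shIRE1 clone 1 its libraries held 69.6, 65.3 and 63.9 CPM at 0 h, 118, 111 and 115 at 24 h, 112, 112 and 125 at 48 h and 114, 118 and 117 at 72 h. Its libraries in shXBP1 clone 1 held 53.7, 60.0 and 62.7, then 108, 90.0 and 93.6, then 92.9, 102 and 94.4, and at 72 h 93.1, 102 and 102. In both of these clones every library with Dox lay above every library without it, and the rise at 72 h was 0.81 in shIRE1 clone 1 (SE 0.0470, adjusted p = 2.29e-11) and 0.73 in shXBP1 clone 1 (SE 0.0793, adjusted p = 4.95e-05). In the other clones RBL2 was high from the start, at 114, 125 and 122 CPM in shIRE1 clone 3 and 136, 142 and 137 in shXBP1 clone 18. At 72 h shIRE1 clone 3 held 125, 125 and 138, and shXBP1 clone 18 held 134, 135 and 99.2, the last value being that of the doubtful library. Neither passed the test there (adjusted p = 0.149 and 0.29), and without its doubtful library shXBP1 clone 18 changed by -0.04 (adjusted p = 0.783). The clones with low RBL2 at 0 h were also those with low ERN1 at 0 h, at 152 ± 2.38 and 188 ± 4.46 CPM in clone 1 of shIRE1 and of shXBP1 against 438 ± 15.31 and 414 ± 3.95 in the other clones. With Dox ERN1 rose in shXBP1 clone 1 (log2 fold change 0.72, SE 0.0438, adjusted p = 8.74e-07), fell in both shIRE1 clones, and was lower at 72 h in shXBP1 clone 18 (log2 fold change -0.29, SE 0.0603, adjusted p = 0.0119, or a change of -0.22 without the doubtful library, adjusted p = 0.00972). Any tie between the 2 genes was not tested. About 16.4% of the exon bases of RBL2 lie opposite other genes, AKTIP among them, which held at most 4.51 CPM in the means of the 16 groups.

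RB1, the retinoblastoma gene, was lower with Dox in both shIRE1 clones and higher in shXBP1 clone 1. At 72 h it went from 176, 167 and 152 to 135, 136 and 145 CPM in clone 1 (log2 fold change -0.25, SE 0.0548, adjusted p = 5.83e-04) and from 156, 161 and 158 to 128, 126 and 142 in clone 3 (log2 fold change -0.28, SE 0.0508, adjusted p = 2.27e-04). At 24 h it was lower in clone 3 (-0.17, adjusted p = 0.0126), a call lost with no filter and with all 48 libraries (a change of -0.20 without the library that resembles clone 1), and not in clone 1 (0.00, adjusted p = 0.97). The rise in shXBP1 clone 1 passed the test at 48 h (log2 fold change 0.33, SE 0.11, adjusted p = 0.0434) and at 72 h (log2 fold change 0.37, SE 0.11, adjusted p = 0.0285), and with a replicate block the adjusted p was 0.0711 and 0.0514. shXBP1 clone 18 held 227, 245 and 229 CPM at 0 h and 252, 282 and 173 at 72 h, the last value being that of the doubtful library, and passed the test with or without it at no time.

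The makeup of the RB family was taken as shares of the summed CPM per kilobase, with the union of exons as length. The size of these shares, and of the ratio below, depends on that length. The share of RBL1 in shIRE1 clone 1 went from 26.3% ± 0.618 (SD, n = 3) at 0 h to 16.2% ± 0.552 at 72 h and that of RBL2 from 17.8% ± 0.562 to 33.5% ± 0.525. In shIRE1 clone 3 RBL1 went from 22.3% ± 0.652 to 13.4% ± 0.558 and RBL2 from 29.2% ± 0.888 to 37.9% ± 0.465. With shXBP1, in clone 1, RBL1 went from 29.9% ± 0.473 to 23.4% ± 0.242 and RBL2 from 18.9% ± 0.786 to 24.6% ± 0.213. In shXBP1 clone 18 RBL1 went from 17.9% ± 0.926 to 19.2% ± 3.28 and RBL2 from 26.2% ± 0.276 to 23.8% ± 1.08, or to 17.3% for RBL1 and 23.7% for RBL2 without the doubtful library. In shXBP1 clone 1 the share of RBL1 was lower at 72 h although RBL1 itself did not pass the test. RB1 stayed the largest component in all 16 groups, between 48.5% ± 0.392 in shIRE1 clone 3 at 0 h and 58.5% ± 0.701 in shXBP1 clone 18 at 48 h. The 72 h group of that clone was the highest without the doubtful library, at 59.0% ± 0.857 (n = 2). The ratio of RBL2 to RBL1 rose in 3 of the 4 clones with no overlap of libraries between 0 h and any later time. It went from 0.678 ± 0.0322 to 2.07 ± 0.0400 in shIRE1 clone 1, from 1.31 ± 0.0761 to 2.83 ± 0.148 in shIRE1 clone 3 and from 0.632 ± 0.0283 to 1.05 ± 0.0146 in shXBP1 clone 1. For shXBP1 clone 18 it was 1.47 ± 0.0809 at 0 h and 1.26 ± 0.207 at 72 h, or 1.37 ± 0.135 at 72 h without the doubtful library. With 3 libraries against 3 an exact permutation test of a single ratio cannot go below p = 0.1, so no test is given for these shares and ratios.

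**Figure D2:**
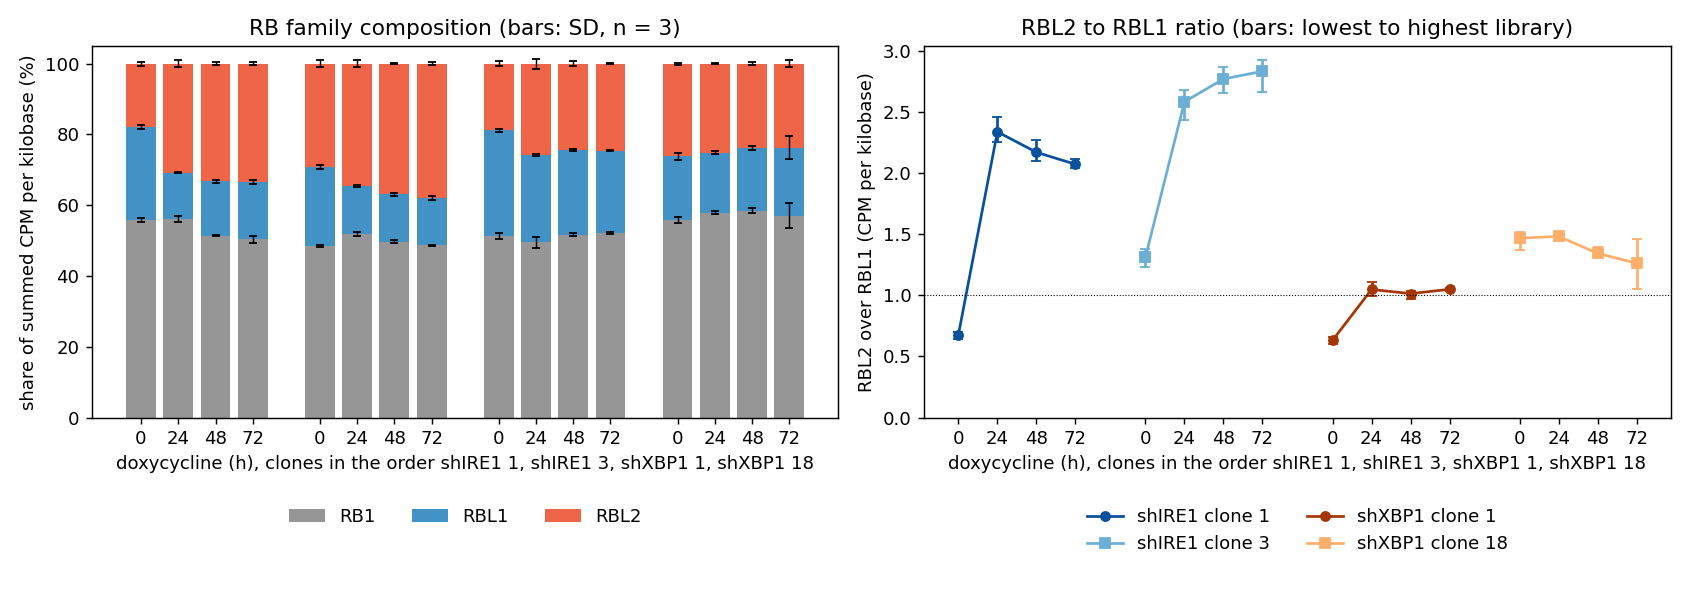
Left, shares of RB1, RBL1 and RBL2 in the summed CPM per kilobase of the RB family (percent, bars from 0, error bars SD of 3 libraries), and right, the ratio of RBL2 to RBL1 (mean, with bars from the lowest to the highest of 3 libraries; dotted line at 1), for the 4 times of each of the 4 clones. With the union of exons as length, the ratio passed 2 in both shIRE1 clones with Dox, reached about 1 in shXBP1 clone 1, and had no such rise in shXBP1 clone 18.

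Counted over the members, the shIRE1 clones showed more calls than the shXBP1 clones, as did the whole table. In shIRE1 clone 1, 1 member was higher and 5 were lower at 24 h, 1 and 6 at 48 h, and 1 and 6 at 72 h. Of all genes tested in that clone, 61.4% were called at 24 h (32.4% higher, 29% lower), 65.4% at 48 h (33.9% and 31.5%) and 63.6% at 72 h (32.5% and 31.1%). In shIRE1 clone 3, 0 members were higher and 5 lower at 24 h, 1 and 6 at 48 h, and 0 and 7 at 72 h. There 46.2% of all genes were called at 24 h (22.8% higher, 23.3% lower), 63.2% at 48 h (31.6% and 31.6%) and 60.2% at 72 h (29.7% and 30.5%). The total of members called was thus close to the share of all genes, and it lay mostly on the lower side, with medians of -0.15 and -0.25 at 72 h over the members against 0.018 and 0.015 over all genes. From 24 to 72 h 6 members were called in clone 1 against 29.1% of all genes, and 3 in clone 3 against 33.5%.

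For shXBP1 clone 1, 1 member was higher and 1 lower at 24 h, 2 and 2 at 48 h, and 2 and 3 at 72 h. Of all genes there, 26.7% were called at 24 h (13.9% higher, 12.8% lower), 32% at 48 h (16.6% and 15.5%) and 33.6% at 72 h (16.8% and 16.8%). In shXBP1 clone 18 edgeR called 0 members at each time, against 1.59% of all genes at 24 h (0.291% higher, 1.3% lower), 5.78% at 48 h (2.28% and 3.5%) and 9.96% at 72 h (4.41% and 5.55%). At an unadjusted p under 0.05 CDK4 passed at 24 h, CCND2 and CDK4 at 48 h, and CCND1 and CDK4 at 72 h, which makes 1, 2 and 2 members. DESeq2 called 1, 1 and 2 members at these times and limma on the deposited log2 values 0 at each. Without the doubtful library edgeR called CDK4 at 24 h, CCND2 at 48 h and 0 members at 72 h, against 4.78%, 12.9% and 7.57% of all genes. From 24 to 72 h 0 members were called by edgeR in either shXBP1 clone, against 0.205% of all genes in clone 1 and 0.125% in clone 18. DESeq2 and limma called 0 as well, and at an unadjusted p under 0.05 there was 1 member, CCND1 in clone 18.

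**Figure D3:**
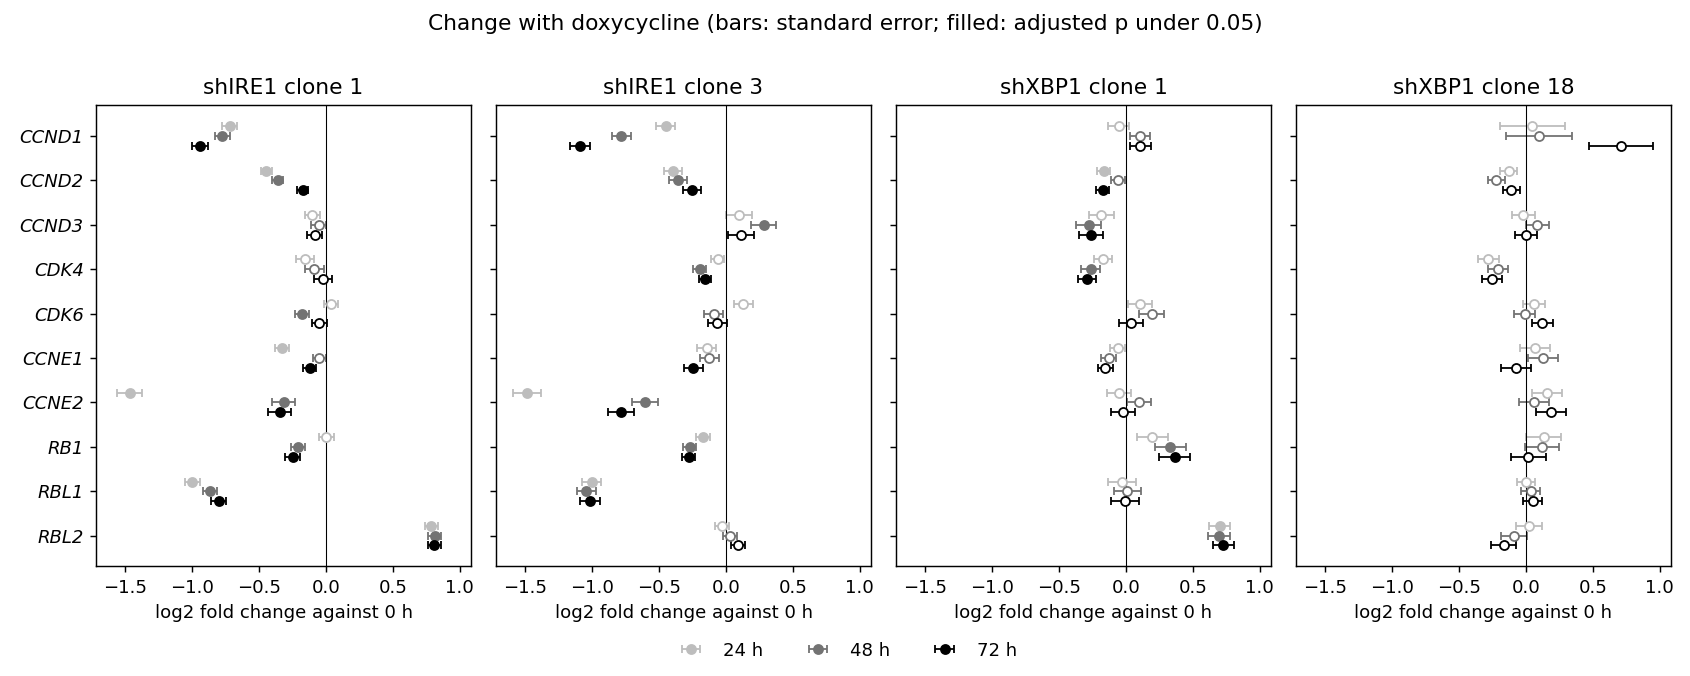
Log2 fold changes of the 10 members (vertical axis) against 0 h in the 4 clones at 24, 48 and 72 h of Dox (light to dark), with bars of 1 standard error and filled points where the adjusted p was under 0.05. In both shIRE1 clones CCND1, CCND2, CCNE2 and RBL1 lie left of 0 at each time, and RBL2 lies right of 0 in clone 1 of each shRNA.

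The fall in the 5 proliferation genes examined (MKI67, TOP2A, PCNA, MCM2 and CDK1) accompanied these changes. All 5 were lower at each time in both shIRE1 clones. In clone 1 their summed level was 2326 to 2418 CPM at 0 h and 799.6 to 843 at 24 h. At 72 h it was 1086 to 1100. In clone 3 it was 1649 to 1967, 831 to 874 and 840 to 938 at these times. From 24 to 72 h 4 were called higher in clone 1 and 2 in clone 3, against 29.1% and 33.5% of all genes. Without the 24 h library that resembles clone 1, 2 were higher and 1 lower in clone 3. For shXBP1 clone 1, 3 of 5 were lower at each time. The summed level in that clone was 2456 to 2553 CPM at 0 h and 1939.7 to 2092 at 24 h. At 72 h it was 2090.3 to 2151. In shXBP1 clone 18 none was lower and TOP2A was higher at 48 and 72 h, also without the doubtful library. The summed level there was 1769 to 1795 CPM at 0 h and 1744 to 1808 at 24 h. At 72 h it was 1909.8 to 2253, or 1909.8 to 1977 without that library. Their part in the values of the members was not tested.

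Whether the members responded differently to shIRE1 and shXBP1 was tested directly, as the mean change of the shIRE1 clones minus the mean change of the shXBP1 clones. The error of this test is the spread of replicate libraries within clones, not that between clones, of which there were 2 for each target. At 24 h 6 members differed, all of them lower with shIRE1, against 38.7% of all genes. CCNE2 differed by -1.54 (SE 0.10, adjusted p = 5.80e-16) and RBL1 by -0.99 (SE 0.0817, adjusted p = 3.63e-13). CCND1, CCND2, CCNE1 and RB1 differed by -0.59, -0.28, -0.25 and -0.26, the last with an adjusted p of 0.0498. RB1 was called in 13 of 30 alternatives, which included leaving out each library, and its adjusted p reached 0.105. In the fit without the doubtful library RB1 differed by -0.27 at 24 h (adjusted p = 0.0078). At 72 h 5 members differed, against 55.3%. RBL1 (-0.93, adjusted p = 1.19e-12), CCNE2 (-0.65, adjusted p = 5.94e-07) and RB1 (-0.46, adjusted p = 3.52e-04) were again lower with shIRE1. CCND1 differed by -1.43 with all libraries and by -1.19 without the doubtful library (adjusted p = 4.11e-11 and 8.39e-18). CDK4 was higher by 0.18 (adjusted p = 0.0246), a call that was lost without that library (adjusted p = 0.0597), where CCNE1 was called in its place (-0.16, adjusted p = 0.0182). The difference for RBL2 at 72 h was 0.17 (SE 0.0770, adjusted p = 0.0619 with edgeR, 0.0359 with limma and 0.0498 with a replicate block). Without the doubtful library it was 0.09 with edgeR (SE 0.0612, adjusted p = 0.208). CCND3 and CDK6 differed at neither time, with differences between -0.14 and 0.14 and standard errors of at most 0.0862.

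**Figure D4:**
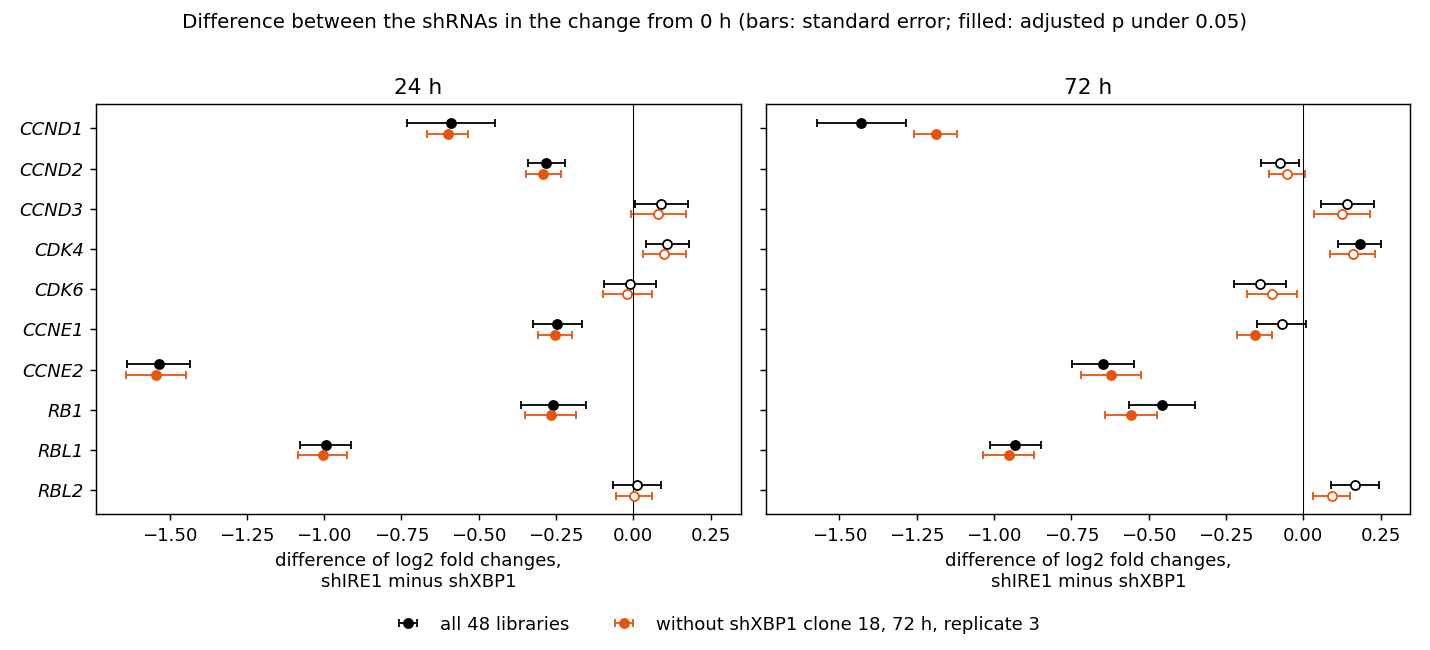
Difference between shIRE1 and shXBP1 in the change from 0 h (mean of the shIRE1 clones minus mean of the shXBP1 clones, log2 scale, bars of 1 standard error) for the 10 members at 24 h and at 72 h, with all 48 libraries (black) and without the library of shXBP1 clone 18 that resembles clone 1 (orange); filled points have an adjusted p under 0.05. CCNE2 lies near -1.54 at 24 h and -0.65 at 72 h, while RBL1 lies near -0.99 and -0.93.

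The 2 clones of an shRNA were compared in the same way at 72 h. In the shIRE1 pair 2 members differed, against 27.5% of all genes, namely RBL2 (-0.71, clone 3 minus clone 1, adjusted p = 2.64e-06) and CCNE2 (-0.42, adjusted p = 0.0217, and 0.115 with no filter). In the shXBP1 pair 2 members differed, against 24.6%, namely RBL2 (-0.93, clone 18 minus clone 1, adjusted p = 3.46e-08) and CCND1 (0.58, adjusted p = 0.0334). Without the doubtful library the difference was -0.76 for RBL2 (adjusted p = 3.59e-08) and 0.11 for CCND1 (adjusted p = 0.477), so that the latter rests on that library. CCNE1 was called in that fit (0.24, adjusted p = 0.0309).

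The clones also differed before Dox. At 0 h shIRE1 clone 3 held more RBL2 than clone 1 (log2 fold change 0.86, SE 0.0779, adjusted p = 8.20e-12) and less CCNE1 (log2 fold change -0.26, SE 0.0798, adjusted p = 0.00832), 2 of 10 members against 40.6% of all genes. CCND1 was -0.33 (adjusted p = 0.0519), and passed the threshold without the doubtful library (adjusted p = 4.28e-05) and under RLE factors, no filter, a replicate block, DESeq2 and limma. shXBP1 clone 18 held more RBL2 (1.23), RB1 (0.88) and CCNE1 (0.32) than clone 1, and less CCND1 (-1.24), CCNE2 (-0.35) and CCND3 (-0.30). These 6 of 10 members, with adjusted p of at most 0.00334, stand against 51.3% of all genes. For RBL2 and CCND1 the gap between the clones of shXBP1 at 0 h was larger than any change with Dox in those clones.

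The wider G1/S machinery was described with 34 partner genes of the members (kinases, inhibitors, E2Fs, the DREAM complex and regulators of cyclin turnover), of which 31 were tested. At 72 h 8 were higher and 16 lower in shIRE1 clone 1, 8 and 21 in shIRE1 clone 3, 9 and 13 in shXBP1 clone 1, and 3 and 1 in shXBP1 clone 18, with medians of -0.18, -0.40, -0.03 and 0.09. Of all genes, 63.6%, 60.2%, 33.6% and 9.96% were called in these comparisons. Without the doubtful library 2 partners were higher and 0 lower in shXBP1 clone 18. Partners were counted as alike in 2 clones only with a mean log2 CPM above 1 over 0 and 72 h in each. The share of all genes called alike by this rule was not computed. On that rule the call went the same way in both shIRE1 clones for 18, 4 higher and 14 lower. The largest were E2F7 (-1.36 in clone 1 and -1.69 in clone 3) and E2F8 (-0.66 and -1.34), atypical repressive E2Fs, CCNA2 (-1.46 and -1.48), cyclin A2, and E2F1 (-0.90 and -1.55) and E2F2 (-1.09 and -1.05), activating E2Fs. E2F5, a repressive E2F, rose (1.01 and 1.39). The adjusted p of these 6 was at most 2.17e-08. On the same rule 2 partners were called the same way in both shXBP1 clones. They were CDKN2B, an inhibitor of CDK4 and CDK6 (0.72 in clone 1 and 0.51 in clone 18), and E2F4 (-0.40 and -0.32), with adjusted p of at most 0.0465. Both calls in clone 18 were lost without the doubtful library, where CDKN2B changed by 0.36 (adjusted p = 0.134) and E2F4 by -0.25 (adjusted p = 0.0796).

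The genes whose means over the 16 groups followed each member most closely were sought among 11994 genes with a mean log2 CPM above 1. The 16 points share 4 clones and are not independent, so that the correlations describe these groups only. They take in levels that set the clones apart as well as changes with Dox. The doubtful library is included, and no correlation was computed without it. RBL1 ran with NUP50, a nucleoporin gene (Pearson's r 0.996), HMGB3 (0.994) and RFC3, a subunit of the clamp loader of DNA replication (0.994). CCNE2 ran with FAM111B (0.964), WEE1, a kinase that restrains CDK1 and CDK2 (0.942), and CLSPN, the gene of the checkpoint adaptor claspin (0.921). RB1 ran with DYNLT3 (0.979), ITM2B (0.979) and RPGR (0.972), and RBL2 with RSPH3 (0.973), OPTN (0.970) and TK2 (0.968). ITM2B is a near neighbour of RB1 in the genome. CCND1 ran with COCH (0.976), VASH2 (0.965) and PXYLP1 (0.953), and CCNE1 with FIP1L1 (0.955), CHN1 (0.945) and RBBP7 (0.944). The remaining members reached lower values, at most 0.935 for CCND3 (NDOR1), 0.910 for CDK6 (FHL3), 0.899 for CDK4 (CNNM3) and 0.881 for CCND2 (CPEB3). Among the members themselves the closest pairs were RB1 with CCNE1 (0.835) and RBL1 with CCNE2 (0.805), and the most opposed pair was CCND1 with RBL2 (-0.724).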

How the data were processed

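Messenger RNA of 48 libraries (4 clones, 4 times, 3 replicates) had been sequenced by the authors as single-end reads. The deposited table holds raw counts per gene, made by the authors from reads on exons. The submitters' processing notes name GSNAP, R 4.1.3, edgeR 3.32.1, limma 3.46.0 and the builds GRCh37 and hg19. Whether strand was used is not given in the sources used here. The second deposited table holds log2 values, which the authors computed as CPM with edgeR (prior count 2) for 18401 genes. The 10 members and the lists of partners, markers and motifs were chosen with earlier results of these data known.

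Counts were filtered (minimum count 10, minimum total 15), scaled by TMM and tested with the quasi-likelihood test of edgeR 4.0.16 in R 4.3.3, fitted to the 12 libraries of each clone for changes with Dox and to all 48 for differences between shRNAs or clones. P-values were adjusted over all genes by Benjamini-Hochberg, with a threshold of 0.05. CPM values use TMM-scaled library sizes. At the lowest library total, 19177855 counts (median 30776246.5, highest 40767202), 1 count is 0.0521 CPM. Levels of different genes were divided by the union of exon lengths in GENCODE annotation of GRCh38. The fit was tested on simulated counts. Replicates differed by more than sampling noise in every group, with a mean chi-square per gene of at least 1.67. Alternatives were RLE factors, no filter, a replicate block, DESeq2 1.42.0, limma 3.58.1 on the deposited log2 values, all 48 libraries or only the 6 compared in the fit, the longest transcript as gene length, and leaving out each library. Named beside the members are the targeted genes, 5 proliferation genes, up to 6 partners per shRNA, and the 3 genes closest to a member in group means. These partners had the largest mean change at 72 h among those called the same way, with a mean log2 CPM above 1, in both clones. Genes were named besides this rule where they lie opposite a member.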

Additional observations from a re-analysis of the deposited data

Results flagged for a closer look

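The responses to shIRE1 and shXBP1 differed by the test of the difference itself for 6 of 10 members at 24 h and 5 at 72 h. Of all genes, 38.7% and 55.3% differed at these times. Differences are shIRE1 minus shXBP1 on the log2 scale, from edgeR with Benjamini-Hochberg adjustment. At 24 h they were -0.59 for CCND1 (adjusted p = 9.74e-04), -0.28 for CCND2 (2.51e-04), -0.25 for CCNE1 (0.0121), -1.54 for CCNE2 (5.80e-16), -0.26 for RB1 (0.0498) and -0.99 for RBL1 (3.63e-13). The RB1 difference was called in 13 of 30 alternatives, and was -0.27 (adjusted p = 0.0078) without the doubtful library. The test's error covers replicate libraries within clones and not the 2 clones of each target. At 72 h they were -1.43 for CCND1 (adjusted p = 4.11e-11), 0.18 for CDK4 (0.0246), -0.65 for CCNE2 (5.94e-07), -0.46 for RB1 (3.52e-04) and -0.93 for RBL1 (1.19e-12). Without the doubtful library of shXBP1 clone 18 the 72 h values were -1.19, 0.16, -0.62, -0.56 and -0.95 for these 5 genes, and CDK4 no longer passed (adjusted p = 0.0597).

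Clones of the same shRNA also differed in their response at 72 h, for 2 of 10 members in each pair. Of all genes, 27.5% differed in the shIRE1 pair and 24.6% in the shXBP1 pair. In the shIRE1 pair (clone 3 minus clone 1) the values were -0.42 for CCNE2 (adjusted p = 0.0217) and -0.71 for RBL2 (2.64e-06). In the shXBP1 pair (clone 18 minus clone 1) they were 0.58 for CCND1 (adjusted p = 0.0334) and -0.93 for RBL2 (3.46e-08). Without the doubtful library these were 0.11 (adjusted p = 0.477) and -0.76 (3.59e-08). Groups of 3 libraries were not tested for single outliers.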

How the results depend on the processing

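Of 3300 member values recomputed under the alternatives, no called value changed sign and 133 uncalled values did. Of 220 values each, 216 kept their side of the threshold with RLE factors (2 calls lost, 2 gained), 207 with no filter (5 and 8), 213 with DESeq2 (1 and 6) and 213 with limma (3 and 4). Of 160 each, 142 did with all 48 libraries in the fit (11 and 7) and 152 with only the 6 compared (4 and 4).

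Counts of members called moved by more than 1.5 times in the following cases. For shIRE1 clone 1, 72 h against 24 h, the count was 2 in place of 6 with all 48 libraries. In shXBP1 clone 1 at 24 h it was 1 in place of 2 with no filter, all 48 libraries or only the 6. For shXBP1 clone 18 it was 1 in place of 0 at 24 h with no filter, DESeq2, all 48 libraries, only the 6, or without the doubtful library. At 48 h it was 1 with no filter, DESeq2 or without the doubtful library, and 2 with all 48 or only the 6. At 72 h it was 2 with no filter, DESeq2 or all 48, and for 72 h against 24 h 1 with no filter or all 48. Members that differed between the shIRE1 clones at 72 h numbered 1 in place of 2 with no filter, and between the shXBP1 clones 1 in place of 2 with limma. The cause was not tested.

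Replicate numbers did not pair the libraries: within clones, the correlation of deviations of same-numbered libraries averaged from -0.089 to -0.01. With a replicate block 209 of 220 member values kept their side of the threshold (8 lost, 3 gained). In shXBP1 clone 1 the block left 1 member called at 24 h, 2 at 48 h and 3 at 72 h, in place of 2, 4 and 5.

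Leaving out 1 library at a time kept 1706 of 1800 member values on their side (71 lost, 23 gained). Counts for 24, 48 and 72 h against 0 h and 72 h against 24 h ran from 6 to 8, 7 to 8, 6 to 8 and 5 to 6 in shIRE1 clone 1, and from 4 to 5, 6 to 8, 7 to 8 and 2 to 4 in shIRE1 clone 3. In shXBP1 clone 1 they ran from 1 to 2, 1 to 4, 2 to 4 and 0 to 0, where 1 call was left for 24 h on dropping replicate 2 or 3 of 0 h. For 48 h 1 was left on dropping replicate 1 of 0 h or replicate 2 of 48 h, and 2 on dropping replicate 2 of 0 h or replicate 3 of 48 h. For 72 h 2 were left on dropping replicate 2 of that time, and 3 on dropping its replicate 1 or 3 or replicate 1 or 3 of 0 h. For shXBP1 clone 18 they were 0 to 0, 0 to 0, 0 to 2 and 0 to 0, with 2 at 72 h on dropping replicate 1 of that time and 1 on dropping replicate 2. Differences between shRNAs numbered 5 to 6 at 24 h and 4 to 7 at 72 h, between shIRE1 clones 1 to 2 at 72 h and 2 to 2 at 0 h, and between shXBP1 clones 1 to 3 at 72 h and 6 to 7 at 0 h. The 72 h difference between shIRE1 clones fell to 1 member on dropping replicate 3 of clone 1 at 0 h, replicate 2 or 3 of clone 3 at 0 h, or replicate 2 of clone 3 at 72 h. That between shXBP1 clones fell to 1 on dropping replicate 1 of clone 1 at 0 h, its replicate 2 at 72 h, or replicate 2 or 3 of clone 18 at 0 h. Without the doubtful library, an alternative for the partners chosen after seeing the data, CDKN2B and E2F4 were no longer called in shXBP1 clone 18 at 72 h, and of the partners named E2F2 (-0.18) and E2F8 (-0.28) were called at 24 h.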
